A study of Homo sapiens with 6 samples.

Results

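The alpha-arrestins are a small family of adaptor proteins. The 5 members described here are ARRDC1, ARRDC2, ARRDC3, ARRDC4 and TXNIP, taken by symbol from the 64299 genes of the deposited count table. The family was picked because ARRDC3 was higher in the cells that carried the ERbeta plasmid, so the difference between groups in ARRDC3 and its relatives is given as a description, with no test. All 5 passed the filter on low counts, which left 16243 genes. Gene expression was measured by RNA sequencing of poly(A) RNA in HEK293T, a transformed human embryonic kidney line, after lipid-based plasmid transfection. In 3 libraries the plasmid is labelled ERbeta or ER-β and in the other 3 it is an empty vector, EV_Ctrl. Both groups share the cell line, the medium and the transfection reagent. What ER-β stands for is not spelled out in the labels. It is taken here, as background, to be an artificial β-sheet protein sent to the endoplasmic reticulum (ER), and not an estrogen receptor. The sources used here do not give the promoter of the plasmid, the share of cells that took it up or the time from transfection to harvest. In bulk RNA, fewer cells of a type and less RNA per cell cannot be told apart.

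Alpha-arrestins have the same arrestin fold as the beta-arrestins that switch off G protein-coupled receptors. Most of them carry short proline-rich motifs that bind the WW domains of NEDD4-type ubiquitin ligases, and they bring these ligases to membrane proteins, which are then ubiquitinated, taken into the cell and sorted for degradation. ARRDC3 is known for acting on integrin β4, an adhesion receptor. TXNIP binds thioredoxin and lowers glucose uptake by removing glucose transporters from the cell surface. TXNIP and ARRDC4 are close relatives, and both are known targets of MondoA, a transcription factor that responds to glucose phosphates. TXNIP has also been linked to ER stress through the sensors PERK and IRE1.

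The stretches upstream of TXNIP, ARRDC4 and ARRDC3 are shown because the ratio of the first 2 genes overlapped between groups. Their ratios to ARRDC3, which was picked for its difference, did not overlap. Regulation shared by these genes was not tested. The stretches come from RefSeq promoters on GRCh38.p14 and end before the first base that GENCODE 29 places in an exon of the gene. TXNIP is read on the minus strand at chr1:145996601-145996829, ARRDC4 on the plus strand at chr15:97960453-97960697 and ARRDC3 on the minus strand at chr5:91383360-91383567. Capitals mark every match, on either strand, to one of the motifs named after the sequences.
TXNIP: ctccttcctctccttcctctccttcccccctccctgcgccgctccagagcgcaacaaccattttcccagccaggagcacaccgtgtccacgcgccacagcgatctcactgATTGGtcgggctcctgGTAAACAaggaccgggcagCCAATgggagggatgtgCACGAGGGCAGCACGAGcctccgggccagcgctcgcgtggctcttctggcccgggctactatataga
ARRDC4: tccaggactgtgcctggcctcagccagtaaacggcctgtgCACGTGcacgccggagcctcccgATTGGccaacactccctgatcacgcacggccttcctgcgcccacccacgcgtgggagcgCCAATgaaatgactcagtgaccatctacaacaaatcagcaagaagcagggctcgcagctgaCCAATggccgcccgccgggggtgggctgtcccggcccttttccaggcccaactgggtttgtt
ARRDC3: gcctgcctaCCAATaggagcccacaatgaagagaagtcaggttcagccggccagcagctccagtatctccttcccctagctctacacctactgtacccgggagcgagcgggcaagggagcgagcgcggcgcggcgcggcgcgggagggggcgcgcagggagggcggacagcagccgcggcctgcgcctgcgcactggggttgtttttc

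Motifs were searched on both strands in the 250 bases before each RefSeq start, and positions are counted from that start. The printed stretches leave out the last 21 (TXNIP), 5 (ARRDC4) and 42 (ARRDC3) of these bases, which lie in GENCODE 29 exons. TXNIP held a direct pair of carbohydrate response sites (CACGNG, any 5 bases, CACGNG again), the match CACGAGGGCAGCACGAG, 88 to 72 bases before the start. Such a pair stood in 16 of 35116 RefSeq promoter windows of the same length, or 0.0456%. ARRDC4 held an E-box (CACGTG, present in 6.34% of windows), which has the letters of such a site, 210 to 205 bases before its start. Other unpaired CACGNG sites were not searched for. TXNIP also held a FOXO core motif (GTAAACA, 2.98% of windows), 124 to 118 bases before the start. The shown ARRDC3 stretch held a CCAAT box (CCAAT, 32% of windows), of which TXNIP had 2 and ARRDC4 had 3. A FOXO core motif lay upstream of the second ARRDC3 start, 29 to 23 bases before it, in a window that on the other strand belongs to the antisense gene ARRDC3-AS1. In none of the windows of the 5 genes was there a match to the mirrored pair (CACGNG, any 5 bases, CNCGTG, 0.0199% of windows), to the ER stress elements ERSE (CCAAT, any 9 bases, CCACG, 0.074%) and UPRE (TGACGTGG, 0.612%), to the amino acid response core CARE (TGATGNAA, 3.14%) or to a heat shock element (GAANNTTC, 5.78%). The ERSE letters contain a CCAAT box, and each site of a pair can be an E-box. A match describes letters and does not show that a factor binds.

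Library totals ran from 6833442 counts in EV_Ctrl 1 to 27101644 in EV_Ctrl 2. All 9 markers listed for the HEK293T line, among them VIM, KRT8 and NEFL, were above 1 CPM in every library, with summed levels of 1945 to 2123 CPM in ERbeta and 1942 to 2068 CPM in EV_Ctrl. Of the 14 markers of leukocytes, hepatocytes, fibroblasts and endothelium, CD3E, AFP and COL1A2 had 0 reads in every library, and summed fibroblast markers, mostly COL1A1, were at 15.6 to 23.8 CPM in ERbeta and 21.3 to 31.8 CPM in EV_Ctrl. Summed hepatocyte markers (ALB, AFP and APOA1) were low in every library but higher in ERbeta, at 0.64 to 1.05 CPM against 0 to 0.23 CPM in the controls. Leukocyte markers summed to 0.96 to 2.21 and 1.39 to 2.09 CPM, and endothelial markers to 2.90 to 4.33 and 1.94 to 4.79 CPM, in ERbeta and EV_Ctrl. The part of these markers in any result was not tested. The 6 libraries also differed in base composition. Among the 2453 tested genes with a transcript GC content under 40%, the median gene lay 0.15 to 0.46 (log2 CPM) above its own mean over all 6 libraries in ERbeta, 0.14 above it in EV_Ctrl 2, and 0.48 and 0.42 below it in EV_Ctrl 1 and 3. EV_Ctrl 2 thus lay beside ERbeta 1 and 2 in this trend and apart from the other 2 controls. These genes had a median log2 fold change of 0.47, ERbeta against EV_Ctrl, and the 2310 genes over 60% GC one of -0.17. ARRDC3 has the lowest GC content of the family, 37.6%, against 43.4% in ARRDC4, 43.9% in TXNIP, 60.2% in ARRDC2 and 62.8% in ARRDC1.

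**Figure D1:**
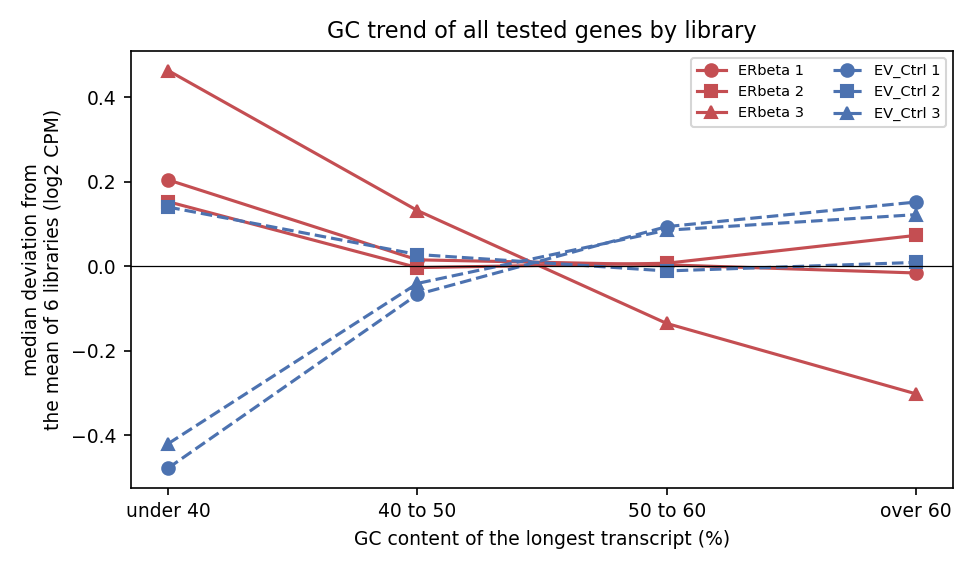
Median deviation of genes from their own mean over the 6 libraries (log2 CPM), by GC content of the longest transcript, for each library (ERbeta in solid red, EV_Ctrl in dashed blue). At under 40% GC, EV_Ctrl 1 and 3 lie at -0.48 and -0.42, and EV_Ctrl 2 at 0.14 beside ERbeta 1 and 2.

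ARRDC3 (ENSG00000113369.6, a protein-coding gene on chromosome 5, 91368724 to 91383359, minus strand of GRCh38) was the member that differed between groups. Its level in CPM, read counts scaled to TMM-normalised library sizes, was 36.4 in ERbeta 1, 30.2 in ERbeta 2 and 40.8 in ERbeta 3. In the controls it was 10.9 (EV_Ctrl 1), 16.9 (EV_Ctrl 2) and 9.32 (EV_Ctrl 3). All 3 ERbeta libraries lay above all 3 controls, as did those of 10.2% of all tested genes, and EV_Ctrl 2 was the highest control. The gene was picked for this difference, so nothing is read from that. Mean levels (± SD, n = 3) were 35.8 ± 5.29 CPM for ERbeta against 12.4 ± 3.99 CPM for the controls. The log2 fold change was 1.50 ± 0.23 (± standard error, as for every log2 fold change below), or 2.84-fold. The median of all genes in its class of GC content, under 40%, was 0.47. It ranked 28 from the top of 16243 genes by log2 fold change. As a description of counting error, from 464 reads in ERbeta 2 the exact 95% Poisson interval was 27.5 to 33.1 CPM, and from 448 reads in EV_Ctrl 2 it was 15.4 to 18.5 CPM.

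**Figure D2:**
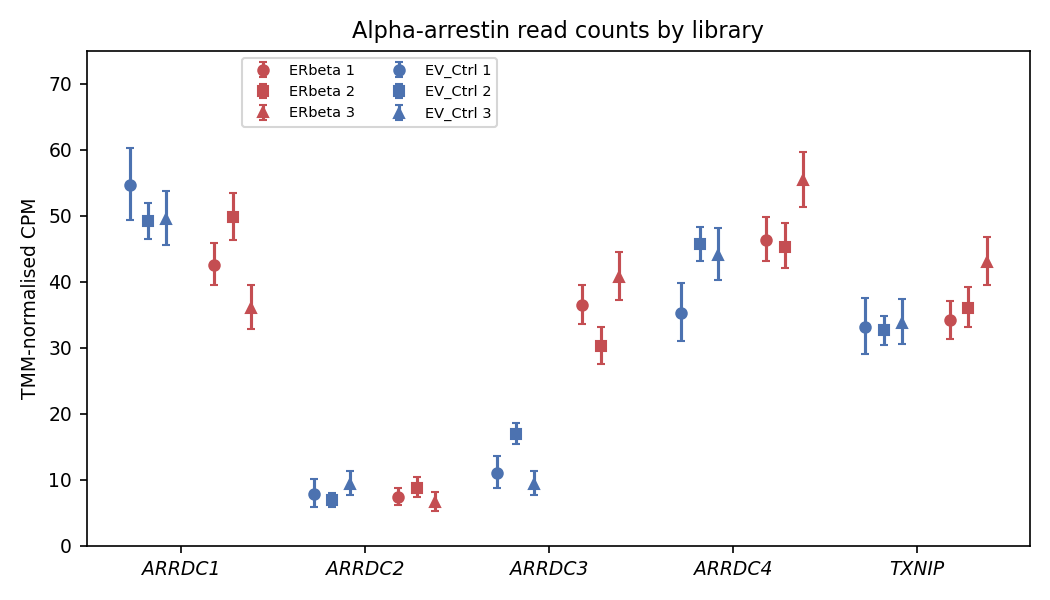
TMM-normalised CPM of each alpha-arrestin in each library, with exact 95% Poisson intervals that cover counting error only (red, ERbeta; blue, EV_Ctrl; circle, square and triangle for replicates 1, 2 and 3). ARRDC3 lies at 30.2 to 40.8 CPM in ERbeta and 9.32 to 16.9 CPM in EV_Ctrl, while the other members are close between groups.

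The size of the ARRDC3 difference moved with the GC trend and with the choice of control library. With a GC offset per library the log2 fold change was 1.01 ± 0.12, or 2.02-fold. Against EV_Ctrl 2 as the only control it was 1.09 ± 0.23, and without EV_Ctrl 2 it was 1.84 ± 0.18. Across all 16 alternatives it stayed positive, between 1.01 and 1.84. By edgeR (quasi-likelihood F test, Benjamini-Hochberg adjusted over all genes) 0 of the 5 members and 0 of 16243 genes (0%) passed the threshold of 0.05. At an unadjusted p under 0.05 there were 1550 higher (9.54%) and 468 lower genes (2.88%). DESeq2's Wald test called 71 genes (0.438%), 70 of them higher (0.432%), and ARRDC3 was among these. limma-voom called 1 gene (0.00616%), which was not a member. With the GC offset edgeR's test called 9 genes (0.0559%), ARRDC3 among them. In the authors' deposited table ARRDC3 stood at a log2 fold change of 1.17 (standard error 0.15), and it was 1 of 421 genes (3.78%) with an adjusted p under 0.05. Because ARRDC3 was picked on this contrast, these counts are not read as support.

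**Figure D3:**
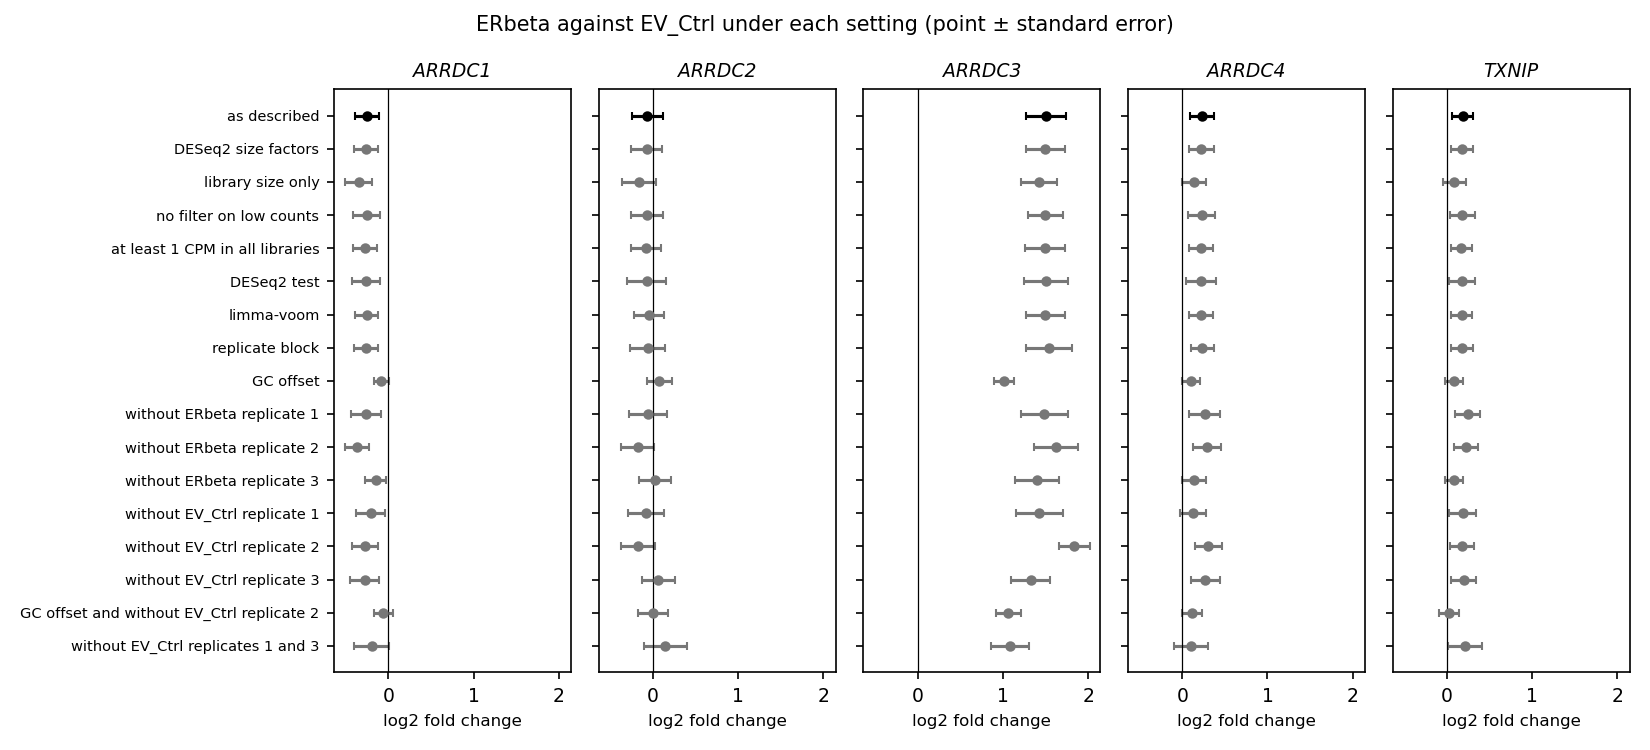
Log2 fold change, ERbeta against EV_Ctrl, with its standard error for each alpha-arrestin under the described fit (black) and each alternative (grey). ARRDC3 stays between 1.01 and 1.84. The other 4 members lie between -0.37 (ARRDC1 without ERbeta 2) and 0.31 (ARRDC4 without EV_Ctrl 2).

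TXNIP (ENSG00000265972.3, chromosome 1, 145992435 to 145996600, minus strand), the thioredoxin-binding member, was nearly the same in both groups. It was at 34.2, 36.0 and 43.0 CPM in ERbeta 1, 2 and 3, and at 33.1, 32.6 and 33.8 CPM in EV_Ctrl 1, 2 and 3. The groups did not overlap, as was so in this direction for 10.2% of all tested genes, but ERbeta 1 lay just above EV_Ctrl 3, and its exact 95% Poisson interval of 31.4 to 37.1 CPM covered all 3 controls. The log2 fold change was 0.19 ± 0.12, from means (± SD) of 37.7 ± 4.66 CPM in ERbeta and 33.2 ± 0.59 CPM in EV_Ctrl. It was 0.08 with the GC offset and 0.08 without ERbeta 3, the library with the highest TXNIP level and the steepest GC trend. The 3 control libraries, which spread from 9.32 to 16.9 CPM in ARRDC3, agreed in TXNIP with a coefficient of variation of 1.78%, less than the counting error of each of them (3.40% to 6.47%).

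ARRDC4 (ENSG00000140450.8, chromosome 15, 97960698 to 97973838, plus strand), the close relative of TXNIP, overlapped between groups. Its levels were 46.4, 45.3 and 55.4 CPM in ERbeta 1, 2 and 3, and 35.2, 45.7 and 44.1 CPM in EV_Ctrl 1, 2 and 3. EV_Ctrl 1 was the low library and ERbeta 3 the high one. The log2 fold change was 0.23 ± 0.14, and 0.10 with the GC offset.

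Ratios between members within a library need no scaling between libraries, but a GC trend does not cancel between genes of unlike GC content. ARRDC3 has 37.6% GC, against 43.9% in TXNIP and 43.4% in ARRDC4, and no GC offset enters the ratios. The ratio of ARRDC4 to TXNIP reads was 1.36, 1.26 and 1.29 for the ERbeta libraries (replicates 1, 2 and 3), against 1.06, 1.40 and 1.30 for the controls, so the groups overlapped. The ratio of ARRDC3 to TXNIP reads was 1.07, 0.84 and 0.95 for the ERbeta libraries, against 0.33, 0.52 and 0.28 for the controls. In ERbeta cells the 2 genes thus had about as many reads as each other, and in each control TXNIP had more. Ratios that hold ARRDC3 carry the difference it was picked for and only describe its size. ARRDC3 to ARRDC4 behaved likewise, at 0.67 to 0.79 in ERbeta and 0.21 to 0.37 in EV_Ctrl.

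**Figure D4:**
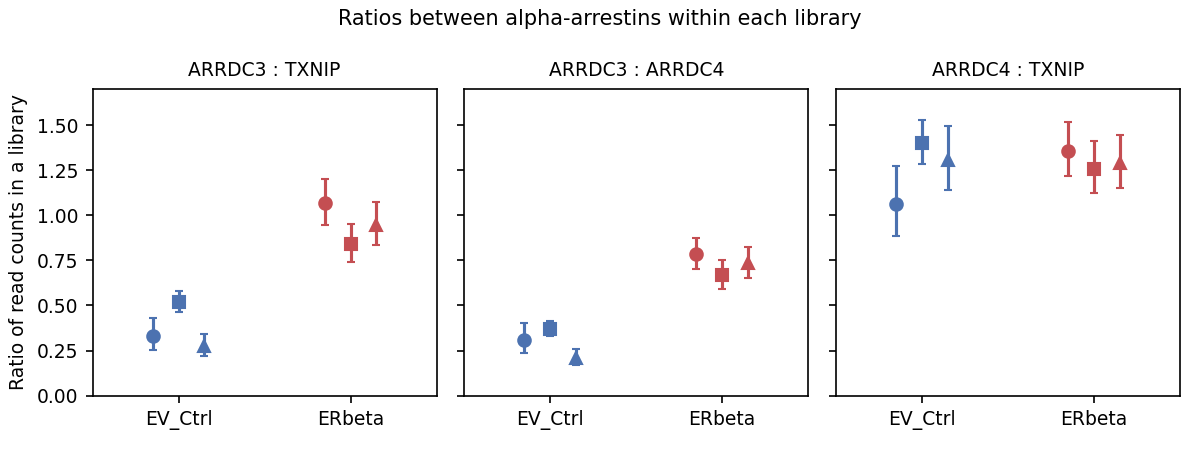
Ratio of read counts of 2 alpha-arrestins within each library, with exact binomial 95% intervals for counting error (circle, square and triangle for replicates 1, 2 and 3). ARRDC3 to TXNIP is 0.84 to 1.07 in ERbeta and 0.28 to 0.52 in EV_Ctrl, while ARRDC4 to TXNIP overlaps between groups.

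ARRDC1 (ENSG00000197070.11, chromosome 9, 137605654 to 137615360, plus strand), which drives budding of vesicles from the plasma membrane together with the ESCRT protein TSG101, was at 42.6, 49.8 and 36.0 CPM in ERbeta 1, 2 and 3, and at 54.6, 49.2 and 49.5 CPM in EV_Ctrl 1, 2 and 3. ERbeta 2 lay among the controls and ERbeta 3 was the lowest. The log2 fold change was -0.25 ± 0.14, and -0.08 with the GC offset. The antisense gene ARRDC1-AS1 shares 29 bases of exon with ARRDC1 and had 0.67 to 0.85 reads per ARRDC1 read in ERbeta and 0.74 to 0.77 in EV_Ctrl. Its log2 fold change was -0.22 ± 0.18. The sources used here do not state the strand setting of the counting, so reads from the shared stretch cannot be told apart.

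ARRDC2 (ENSG00000105643.7, chromosome 19, 18001132 to 18014102, plus strand) was the member with the fewest reads. It was at 7.35, 8.73 and 6.58 CPM in ERbeta 1, 2 and 3 and 7.76, 6.86 and 9.32 CPM in EV_Ctrl 1, 2 and 3. The groups overlapped fully, with a log2 fold change of -0.07 ± 0.18 that turned to 0.08 with the GC offset. EV_Ctrl 1 held only 56 ARRDC2 reads, a counting error of 13.4%. A gene on the opposite strand, AC020904.3, shares 442 exon bases with ARRDC2 and had 0 reads in every library. ARRDC5, the remaining alpha-arrestin gene, also had 0 reads in all 6 libraries. ARRDC3 shares 145 exon bases with ARRDC3-AS1 on the opposite strand, whose identifier was not matched in the count table, so reads of the 2 genes in that stretch cannot be told apart either.

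Per kilobase of exon, the family had 3 members at a similar level and 2 lower ones. In EV_Ctrl the order was ARRDC1 at 13.4 ± 0.79, ARRDC4 at 10.2 ± 1.38, TXNIP at 9.15 ± 0.16, ARRDC3 at 2.51 ± 0.81 and ARRDC2 at 1.72 ± 0.27 CPM per kilobase (SD, n = 3). ARRDC4 and TXNIP overlapped over libraries, as did ARRDC3 and ARRDC2, while ARRDC1 lay above ARRDC4 in each control. In ERbeta the order was ARRDC4 at 12.0 ± 1.36, ARRDC1 at 11.2 ± 1.80, TXNIP at 10.4 ± 1.29, ARRDC3 at 7.26 ± 1.07 and ARRDC2 at 1.63 ± 0.23 CPM per kilobase (SD, n = 3). The first 3 overlapped with one another, ARRDC3 lay below TXNIP in each ERbeta library and ARRDC2 lay far below both. Of all reads on the 5 genes, ARRDC3 took 21.8%, 17.8% and 22.4% in ERbeta 1, 2 and 3, against 7.73%, 11.2% and 6.38% in EV_Ctrl 1, 2 and 3. The ARRDC1 share, part of the same total, was 19.8% to 29.3% for ERbeta and 32.5% to 38.6% for the controls. TXNIP held 20.5% to 23.7% of the family's reads in all 6 libraries. The 5 genes together held (mean ± SD) 173 ± 7.86 CPM in ERbeta and 146 ± 4.80 CPM in EV_Ctrl, a difference of which ARRDC3 made up most.

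In the authors' deposited table the other members also had small differences, with log2 fold changes (standard error) of 0.16 (0.10) for TXNIP, 0.19 (0.10) for ARRDC4, -0.24 (0.10) for ARRDC1 and -0.05 (0.14) for ARRDC2. None of these 4 had an adjusted p under 0.05 there, and for ARRDC2 it is given as NA. The value for ARRDC3 in that table, 1.17, is smaller than the 1.50 obtained here from the counts by edgeR. DESeq2 run here on the counts gave 1.51 ± 0.26. The authors' DESeq2 version is not given, so the estimates may be of unlike kinds, which was not tested.

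Among 13452 other genes with a symbol and a mean log2 CPM of at least 1, those whose log2 CPM followed ARRDC3 most closely over the 6 libraries were CAP2, TAF1A, ROCK1P1, CCNL1 and PCGF6, with Pearson's r between 0.995 and 0.998. All 5 had smaller differences than ARRDC3, with log2 fold changes of 0.35 (CAP2) to 0.82 (TAF1A). A correlation above 0.95 with ARRDC3 was reached by 243 genes, and one above 0.95 with TXNIP by 15. The genes closest to TXNIP were PRNP, LPAR1, HNRNPF, SOX2 and FRMD5, with r of 0.972 to 0.984 and log2 fold changes of 0.08 to 0.18. In both sets the 6 points share their libraries, depth and GC trend, so the values only describe which profiles look alike.

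The ubiquitin ligases that alpha-arrestins recruit were measured beside them. With all libraries edgeR's test called 0 of 16243 genes (0%), so a count of 0 passed in this or a later list only repeats that. Of 11 NEDD4-type ligases and adaptors, all tested, 0 passed edgeR's test over all genes in either direction, 9 had a positive log2 fold change and the median was 0.20, where over all tested genes 48.3% were positive and the median was -0.01. NEDD4, the founding ligase, was at 50.6, 50.2 and 70.3 CPM in ERbeta 1, 2 and 3 and at 20.6, 48.7 and 17.9 CPM in EV_Ctrl 1, 2 and 3. EV_Ctrl 2 reached nearly the level of ERbeta 1 and 2. The log2 fold change was 0.95 ± 0.37, and 0.49 with the GC offset. NDFIP2, a membrane adaptor that activates these ligases, was at 0.70 ± 0.20 and WWP1 at 0.60 ± 0.25, and with the GC offset at 0.04 and 0.16. With that offset the median of the 11 was -0.01, and 5 were positive. Without EV_Ctrl 2, edgeR's test called NEDD4, NDFIP2 and WWP1 higher, beside 14.3% of all genes. With the offset and without EV_Ctrl 2 it called NEDD4 of these 3 (0.80), beside 10.3% of all genes. In that setting NDFIP1, an adaptor like NDFIP2, was called lower (-0.86). With all libraries and no offset NDFIP1 was at 0.10 ± 0.10. It was at -0.61 with the offset only and at 0.07 with only EV_Ctrl 2 left out.

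With all 6 libraries edgeR's test called 0 of 16243 genes (0%), and so no gene around TXNIP. This is not a result about these genes in particular. Without EV_Ctrl 2 the test called PRDX3 (0.45) and SLC2A13 (1.15) higher, beside 14.3% of all genes. With the GC offset they were at 0.14 and 0.20, and with the offset and without EV_Ctrl 2 neither was called. In the thioredoxin system (TXN, TXN2, their reductases and peroxiredoxins) 0 of 10 passed, 6 were positive and the median log2 fold change was 0.03. It was 0.12, with 9 positive, under the GC offset and -0.03, with 4 positive, against EV_Ctrl 2 alone. The smallest p-values were those of PRDX3, a mitochondrial peroxiredoxin, at 0.27 ± 0.16, TXNRD1 at 0.13 ± 0.11 and PRDX2 at -0.11 ± 0.16. In the network of MondoA (MLXIP) and its partner MLX, 0 of 9 passed, 2 were positive and the median was -0.14. It was -0.05, with 3 positive, under the GC offset and 0.005, with 5 positive, against EV_Ctrl 2 alone. MLXIP was at -0.41 ± 0.27 (-0.28 with the GC offset) and MLX at -0.0002 ± 0.10, and in both the groups overlapped. MLXIPL (ChREBP), the relative of MondoA, was at 10.0, 9.97 and 4.65 CPM in ERbeta 1, 2 and 3 and 15.7, 10.2 and 12.7 CPM in EV_Ctrl 1, 2 and 3. These groups did not overlap, as was so in this direction for 8.48% of tested genes, and the log2 fold change was -0.61 ± 0.30. MNT and MXD1, repressors that pair with MAX, were at -0.32 ± 0.17 and 0.35 ± 0.19. For glucose uptake and the entry into glycolysis 0 of 12 tested genes of 13 passed, 2 were positive and the median was -0.10 (-0.03, with 5 positive, against EV_Ctrl 2 alone). SLC2A13, a proton-myo-inositol transporter, was at 0.76 ± 0.30, the glucose transporters SLC2A8 and SLC2A10 at -0.32 ± 0.14 and -0.35 ± 0.18, and SLC2A1 (GLUT1), the transporter that TXNIP removes from the surface, at -0.02 ± 0.12.

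Reported cargo of alpha-arrestins included a target of ARRDC3. Of 9 cargo genes 8 were tested, 0 passed and all 8 had a negative log2 fold change, with a median of -0.15 (-0.05 and 2 positive with the GC offset, and 4 positive against EV_Ctrl 2 alone). ITGB4, which encodes integrin β4, was at -0.16 ± 0.24. The smallest p-values were those of F2R, the thrombin receptor PAR1, at -0.19 ± 0.11, of SLC2A4 (GLUT4) at -0.35 ± 0.21 and of SLC11A2, the iron transporter DMT1, at -0.10 ± 0.11. These are RNA levels and do not measure the cargo proteins at the surface. Of the 12 ESCRT genes that serve ARRDC1 vesicles 0 passed, 8 were positive and the median was 0.06. The median was 0.07, with 10 positive, under the GC offset and -0.01, with 5 positive, without ERbeta 2. TSG101 was at 0.10 ± 0.10, while PDCD6IP (ALIX) at 0.43 ± 0.19, VPS37A at 0.41 ± 0.17 and VPS4B at 0.37 ± 0.14 had the smallest p-values, and with the GC offset these 3 were at 0.07, 0.002 and -0.06. Without EV_Ctrl 2 edgeR's test called PDCD6IP (0.66) and VPS37A (0.61) higher, beside 14.3% of all genes, and with the offset as well neither was called. Among beta-arrestins and other arrestin-fold genes 0 of 5 tested genes of 7 passed, 1 was positive and the median was -0.10, which turned to 0.02, with 3 positive, under the GC offset. ARRB1, β-arrestin 1, was at 6.79, 6.58 and 7.30 CPM in ERbeta 1, 2 and 3 and 9.28, 9.05 and 10.4 CPM in EV_Ctrl 1, 2 and 3, a log2 fold change of -0.48 ± 0.14 (-0.36 with the GC offset). Those groups did not overlap, as was so in this direction for 8.48% of tested genes, and EV_Ctrl 2 lay with the other controls. VPS26A, a retromer subunit, was at 0.79 ± 0.30, with 81.6 CPM in EV_Ctrl 2 against 36.2 and 37.6 CPM in EV_Ctrl 1 and 3, and VPS26B was at -0.10 ± 0.09. Without EV_Ctrl 2 the test called VPS26A higher, at 1.29, beside 14.3% of all genes, and with the offset as well it was called at 0.86, beside 10.3%.

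**Figure D5:**
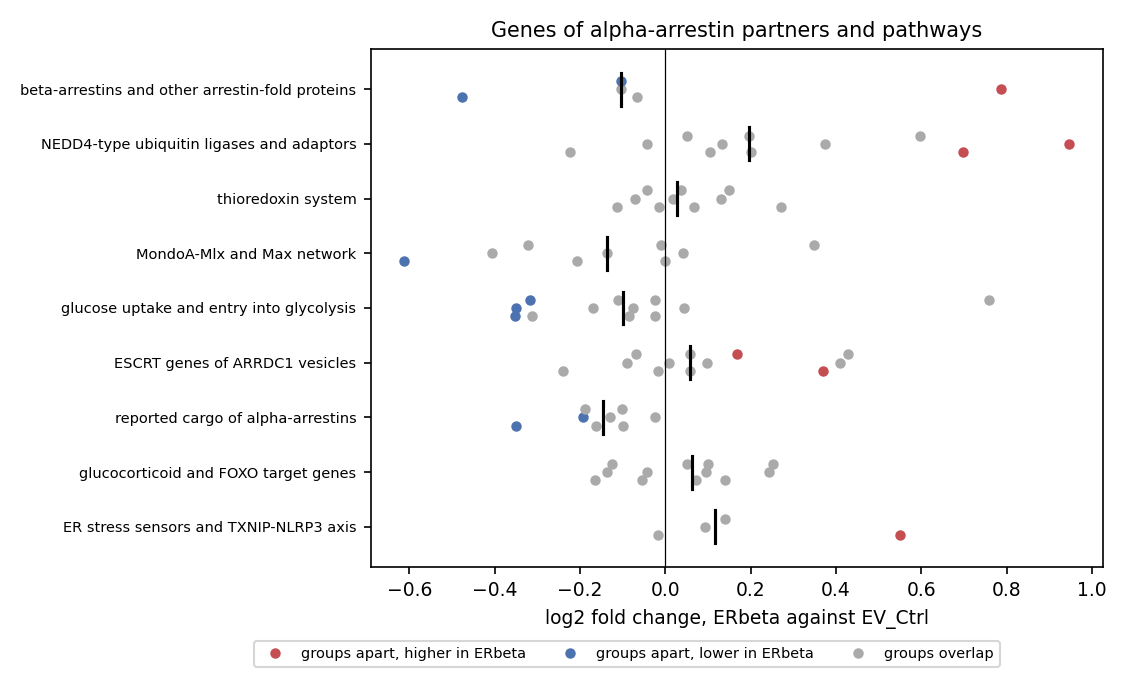
Log2 fold change, ERbeta against EV_Ctrl, of each tested gene in 9 lists of alpha-arrestin relatives, partners, cargo and regulators (bar, median of the list; red and blue, groups that do not overlap; grey, groups that overlap). List medians lie between -0.15 and 0.20. No gene of the lists passed edgeR's test, as was so for all 16243 tested genes.

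Genes that share known regulators with ARRDC3 and TXNIP were measured last. Of 12 glucocorticoid and FOXO target genes 0 passed, 7 were positive, and the median was 0.06. It turned to -0.02, with 4 positive, under the GC offset, and to -0.005 without ERbeta 1. In all 12 the groups overlapped, where only 10.2% of all tested genes were apart and higher and 8.48% apart and lower. KLF9, a transcription factor raised by glucocorticoids, was at 0.25 ± 0.16, PDK4, a kinase that restrains pyruvate dehydrogenase, at 0.24 ± 0.19 (-0.11 with the GC offset), and SESN1, a stress-induced regulator of mTORC1, at 0.14 ± 0.11. With the GC offset and without EV_Ctrl 2 edgeR's test called BTG1, an antiproliferative gene, lower at -0.62, beside 10.3% of all genes. BTG1 was at 0.07 ± 0.13 with all libraries and no offset. It was at -0.41 with the offset only and at 0.03 with only EV_Ctrl 2 left out. Of 9 genes of the ER stress sensors and the TXNIP-NLRP3 axis 4 were tested, 0 passed, 3 were positive and the median was 0.12 (0.32 against EV_Ctrl 2 alone, where 5 were tested and 5 positive). EIF2AK3, which encodes the sensor PERK, was at 62.4, 61.2 and 66.8 CPM in ERbeta 1, 2 and 3 and at 40.6, 46.3 and 43.0 CPM in EV_Ctrl 1, 2 and 3. All 3 ERbeta libraries lay above all controls, as in 10.2% of tested genes, at a log2 fold change of 0.55 ± 0.11, and 0.48 with the GC offset. With EV_Ctrl 2 left out edgeR's test called it higher, at 0.61, beside 14.3% of all genes. With all libraries its adjusted p was 0.326 in edgeR's test and 0.0173 in DESeq2's, which called it higher as 1 of 70 genes. ERN1, which encodes IRE1, was at -0.02 ± 0.22, ATF6 at 0.14 ± 0.13 and DDIT4, a stress gene whose product binds TXNIP, at 0.09 ± 0.11.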

How the data were processed

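RNA was sequenced from 3 ERbeta and 3 EV_Ctrl libraries (stranded mRNA kit, per the labels' protocols). TopHat2, featureCounts and DESeq2 with hg38 are named, per the submitters' processing notes; their versions, annotation and strand setting are not given there. One deposited table holds the authors' raw counts per gene. The other holds the authors' comparison: per the file headers a mean signal (normalised count), a log2 fold change, its error and Wald statistic as scores, and p-values. The members and gene lists were chosen with earlier results of these data known.

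Symbols were matched for 40995 of 64299 identifiers. Genes were filtered (filterByExpr, minimum count 10, minimum total 15), TMM-normalised and tested with edgeR 4.0.16 in R 4.3.3 (quasi-likelihood, group only, Benjamini-Hochberg, threshold 0.05). DESeq2 1.42.0 and limma 3.58.1 were alternatives, as was a GC offset (loess, span 0.5, GC of the longest GENCODE 29 transcript, 99.1% of tested genes). Standard errors come from the F statistic. Named genes were the family, genes antisense to it, the 3 members of each list with the smallest edgeR p and the 5 genes most like ARRDC3 and TXNIP; others were chosen after their values were seen. Within-group library pairs differed beyond counting noise (chi-square per degree of freedom 4.99 to 38.9). No label says that replicates were separate cultures, and p-values then reflect only the spread of these libraries, possibly technical. Reads carry no molecular identifiers, so intervals cover counting error only. On simulated ERbeta and EV_Ctrl counts for 16243 genes, with one dispersion for all genes, edgeR made 7 false calls. It recovered 81% of genes changed by 1 and 100% of those changed by 2 on the log2 scale. These shares hold for that setting only. They do not give the power of the test on the measured counts, where 0 genes passed. Figures were drawn with matplotlib 3.10.9.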

Additional observations from a re-analysis of the deposited data

How the results depend on the processing

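The number of genes called by edgeR, 0, was 51 with no filter on low counts, 71 in DESeq2's test, 1 in limma-voom, 9 with the GC offset, and 1660 with the GC offset and without EV_Ctrl 2. Leaving out 1 library gave 0 to 2324 calls, the highest without EV_Ctrl 2 (2198 higher, 126 lower). Of 81 pathway genes tested, 1 was called by DESeq2, beside 0.438% of all genes. Leaving out 1 library called 0 to 9 of 81 or 82 pathway genes. The 9, of 81, came without EV_Ctrl 2, beside 14.3% of all genes. With the GC offset and without EV_Ctrl 2, 5 of 81 were called, beside 10.3% of all genes (NEDD4, VPS26A and EIF2AK3 higher, NDFIP1 and BTG1 lower). The ARRDC3 log2 fold change, 1.50, was 1.01 with the GC offset, 1.06 with it and without EV_Ctrl 2, 1.09 without EV_Ctrl 1 and 3, and 1.33 to 1.84 when 1 library was left out. The cause of these moves was not tested. With a single EV_Ctrl library (a setting chosen after the data were seen) that library is assumed to vary like ERbeta. ARRDC2 changed sign in 5 settings. Per kilobase of the longest transcript, 3 of 5 ranks in EV_Ctrl and 2 of 5 in ERbeta were as with exon unions, TXNIP moving above ARRDC4 and, in ERbeta, ARRDC1 taking the first place. In the fit with a replicate block 0 genes and 0 pathway genes were called, and ARRDC3 was at 1.54. Same-numbered libraries did not deviate together in every pair (r of 0.23, -0.14 and -0.15), so the numbers were not taken as pairs. The least-read value was ARRDC2 in EV_Ctrl 1, with 56 reads.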
